A study of Solanum tuberosum with 2 samples.

Results

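Class III peroxidases and Cu/Zn superoxide dismutase were described in uncut and cut in vitro potato (Solanum tuberosum, cv. Desirée). These were 5 genes of the 40430 in the deposited table: peroxidase 9 (PGSC0003DMG400003748), peroxidase 9-like (PGSC0003DMG400006386), probable peroxidase 61 (PGSC0003DMG400005872), peroxidase 25 (PGSC0003DMG400025478) and chloroplastic superoxide dismutase [Cu-Zn] (PGSC0003DMG400000417). They were chosen by name from the study's annotation of genes that responded to ultrasound. The cut library was the untreated control of that experiment at its first sampling time. Their levels in both libraries were known when they were chosen, so every difference between cut and uncut given for them is a description, and the intervals given with them describe counting error and test nothing about cutting.

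The uncut group was wild-type plantlets, 4 weeks old and left intact. The cut group was single-node segments, each with 1 leaf, excised from plantlets of the same age, cultivar and genotype. Each group was 1 library made from pooled biological replicates, so no spread between replicates could be computed and no p-value is given. The labels name leaf as the tissue of both, whereas the protocol describes whole plantlets and nodal segments. The effect of cutting and a different mix of organs therefore cannot be told apart. In such bulk samples, fewer cells of a type and less RNA per cell cannot be told apart either.

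Class III peroxidases are secreted haem enzymes of plants that use hydrogen peroxide to oxidise phenolic compounds. They couple monolignols into lignin, cross-link cell wall proteins and, in potato tubers, take part in the suberin of wound periderm. Superoxide dismutases convert superoxide into oxygen and hydrogen peroxide, the Cu/Zn form of the chloroplast acting where photosynthetic electron transport leaks electrons. Catalases break hydrogen peroxide down in peroxisomes, and NADPH oxidases (RBOH) make superoxide outside the cell.

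Levels are reads in the exons of a gene per 1000000 reads of its library (RPM), deposited on a log2 scale. Whole reads were recovered from the deposited values, and the library totals came to about 37955483 reads in uncut and 33850937 in cut. Intervals in brackets are exact 95% intervals (Poisson for a level, Clopper-Pearson for a ratio) and cover counting error only. The reads summed over genes, 67314360 and 60081924, exceeded these totals, so both reads of a pair may have been counted and the intervals may be too narrow. For a gene without reads, a limit of 3 reads per library was used in place of the exact interval of its level, or 0.0790 RPM in uncut and 0.0886 RPM in cut. A gene was called different when its log2 difference (cut minus uncut) was at least 2 in size, among the 21688 genes whose reads in uncut and cut summed to 50 or more (the genes tested). The median log2 difference of these genes was -0.33.

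All 5 genes were lower in cut than in uncut. Of the 21688 genes tested, 63.2% were lower in cut by any amount, so that direction was also the common one in the table. Of the 5 genes, 2 were past the rule of size, both lower in cut, beside 7.35% of all tested genes lower by as much. None of the 5 was higher by that size, beside 8.25% of all tested genes. These shares were 1595 genes lower and 1789 higher, and with the libraries scaled so that the median difference was 0 they became 1099 lower and 2216 higher, with the same count of 2 and 0 among the 5. The 2 genes past the rule, peroxidase 61 and peroxidase 25, had no reads in cut. They passed the read minimum through uncut alone, and a gene that does so without reads in cut is always past the rule. Their call therefore says no more than that reads were absent in cut, and the 7.35% is not a like comparison for them. The other 3, superoxide dismutase, peroxidase 9 and peroxidase 9-like, had a lower level but kept reads in both libraries. The median difference of the 5 was -1.29 on the log2 scale.

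**Figure D1:**
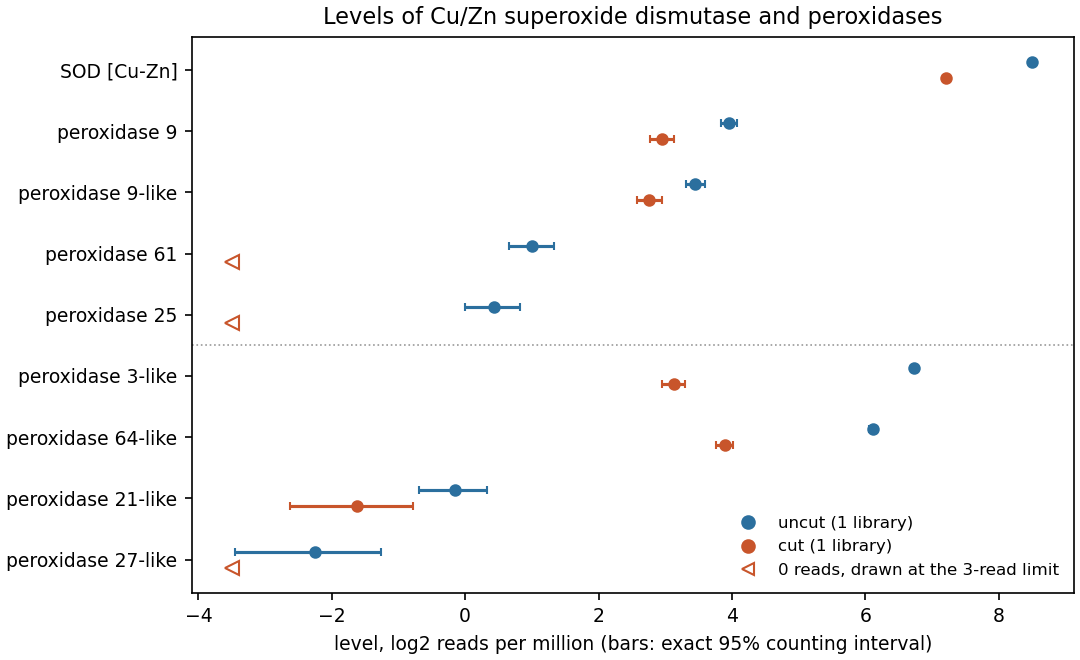
Level of each gene (log2 RPM, horizontal axis) in the uncut library (blue) and the cut library (orange), with exact 95% counting intervals; the 5 genes described are above the dotted line and the 4 other peroxidases below it, and open triangles mark 0 reads, drawn at 3 reads. In all 9 genes the cut library was below the uncut one, beside 63.2% of all genes tested. Of the 9 genes, 3 had no reads in cut. Levels of different genes are not per length and should not be compared.

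Superoxide dismutase [Cu-Zn] lies on the plus strand of chromosome 11 from 39217263 to 39223656 (SolTub 3.0). It had 13761 reads in uncut, or 363 RPM (357 to 369), and 5011 reads in cut, or 148 RPM (144 to 152). The level in uncut was thus 2.45 times that in cut (2.37 to 2.53), a log2 difference of -1.29 (-1.34 to -1.25). Of all tested genes, 15.7% had a difference at or below this one. Relative to the median of all genes the difference was -0.96. The top protein hit of the study's annotation matched the RefSeq gene LOC102605869, which carries 3 protein isoforms. The gene-level count does not separate them. The same annotation places the protein in a family that also holds the copper chaperone of superoxide dismutase, and the study's text speaks of a sequence encoding the chaperone. Which of the products the gene encodes was not tested, and it is called here by its annotated name. The span of the gene also contains a U1 spliceosomal RNA feature on the same strand, which had 0 reads in both libraries.

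Peroxidase 9 and peroxidase 9-like lie on the minus strand of chromosome 4, from 70184381 to 70186537 and from 65556032 to 65558327, 4.63 Mb apart. In Arabidopsis, the peroxidase that gives them their number cross-links extensins in the tapetum of the anther. Peroxidase 9 had 591 reads in uncut, or 15.6 RPM (14.3 to 16.9), and 262 reads in cut, or 7.74 RPM (6.83 to 8.74). Peroxidase 9-like had 416 reads in uncut, or 10.96 RPM (9.93 to 12.1), and 230 reads in cut, or 6.79 RPM (5.94 to 7.73). For both genes the intervals of the 2 libraries, which cover counting error only, did not overlap. The share of all tested genes for which the same held was not computed. The level in uncut was 2.01 times that in cut for peroxidase 9 (1.74 to 2.34), a log2 difference of -1.01 (-1.22 to -0.80). It was 1.61 times that in cut for peroxidase 9-like (1.37 to 1.90), a log2 difference of -0.69 (-0.93 to -0.45). Of all tested genes, 22.3% were at or below the difference of peroxidase 9 and 33.9% at or below that of peroxidase 9-like. Peroxidase 9-like was the closest of the 5 to the median of all genes, at -0.36 relative to it. With the reads halved, to allow for read pairs, the upper bound of its difference was -0.35, just below that median.

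The ratio of 2 genes within a library does not depend on how the libraries were scaled, and 4 such ratios, chosen after the values were seen, were compared between cut and uncut. The ratio of peroxidase 9 to peroxidase 9-like in cut was 0.802 times that in uncut (0.642 to 1.002, exact conditional interval). This interval included 1. The ratio of superoxide dismutase to peroxidase 9 in cut was 0.821 times that in uncut (0.706 to 0.957), and with the reads halved its interval reached 1.02. The ratio of superoxide dismutase to peroxidase 9-like was 0.659 times that in uncut (0.557 to 0.780), and it stayed below 1 with the reads halved, with an upper bound of 0.839. These ratios describe the 2 libraries only.

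Probable peroxidase 61 lies on the minus strand of chromosome 8 from 5883425 to 5889147. It had 76 reads in uncut, or 2.002 RPM (1.58 to 2.51), and 0 reads in cut, where the limit of 3 reads is 0.0886 RPM. Peroxidase 25 lies on the plus strand of chromosome 2 from 23460810 to 23462778. In Arabidopsis, the peroxidase of this number is one of those tied to lignin in the stem. It had 51 reads in uncut, or 1.34 RPM (1.0005 to 1.77), and 0 reads in cut. With 3 reads taken for the 0 and the uncut level as measured, the level in cut was at least 22.6-fold lower for peroxidase 61 and at least 15.2-fold lower for peroxidase 25. The deposited log2 values were 1.002 and 0.43 in uncut, while both genes stood at -5.23 in cut, the value the table gives to every gene without reads there. The deposited differences, -6.23 and -5.66, depend on that value, and with 3 reads for the 0 they were -4.50 and -3.92. The exact interval of the ratio, which also takes in the counting error of the uncut level, had upper bounds of -4.16 and -3.57.

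Both genes stood close to the read minimum of 50, peroxidase 25 with 51 reads in all and peroxidase 61 with 76. All of these reads were in uncut, so the minimum itself placed both genes past the rule of size. Of the 889 genes in the table with 51 to 76 reads in uncut, 20 had no reads in cut, or 2.25%. That range was set after the 2 values were known.

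**Figure D2:**
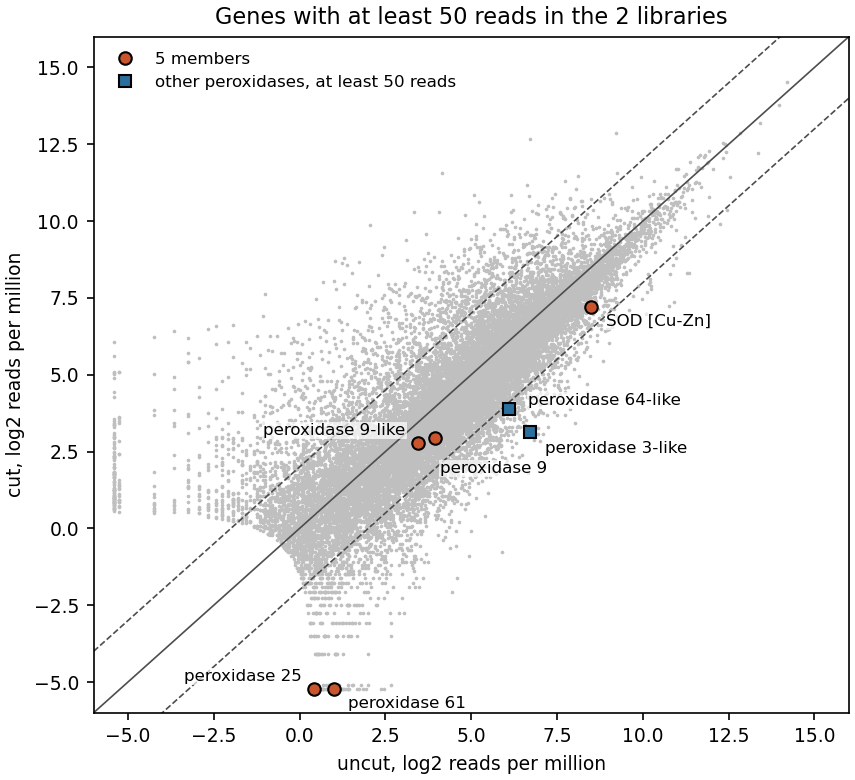
Level in cut against level in uncut (log2 RPM) of each gene tested (grey points); the solid line marks equal levels, the dashed lines a log2 difference of 2, orange circles the 5 genes described and blue squares the other 2 peroxidases with enough reads. Superoxide dismutase, peroxidase 9 and peroxidase 9-like lay between the equal-level line and the lower dashed line, and peroxidase 61 and peroxidase 25 lay on the row of genes without reads in cut.

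The study's annotation named 4 other class III peroxidases, and all 4 were lower in cut, beside 63.2% of all tested genes. Peroxidase 3-like (PGSC0003DMG400005273, chromosome 5), whose Arabidopsis counterpart is a cold-inducible peroxidase expressed in roots, had 4013 reads in uncut and 296 in cut. Its level was 12.1-fold lower in cut (10.7 to 13.7). Peroxidase 64-like (PGSC0003DMG400003654, chromosome 2), whose Arabidopsis counterpart acts in lignin deposition at the Casparian strip, had 2630 reads in uncut and 504 in cut. Its level was 4.65-fold lower in cut (4.23 to 5.13). These 2 genes, 2 of the 2 with at least 50 reads, were past the rule of size, beside 7.35% of all tested genes. Peroxidase 64-like, at -2.22, was at -1.89 relative to the median of all genes. Peroxidase 21-like (PGSC0003DMG400010465, chromosome 10) had 34 reads in uncut and 11 in cut, and peroxidase 27-like (PGSC0003DMG400024330, chromosome 12) had 8 and 0. Both were under the read minimum.

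Over the 8 class III peroxidases together, the summed level was 206 RPM in uncut and 38.5 RPM in cut, a ratio of 5.35. Most of that sum, which counts reads and is not per gene length, came from peroxidase 3-like and peroxidase 64-like, at 106 and 69.3 RPM in uncut. Of the 8 genes, 6 had at least 50 reads. Of these 6, 4 were lower by the rule of size and 0 higher, beside 7.35% and 8.25% of all tested genes. Among the 4 were peroxidase 61 and peroxidase 25, whose call was fixed by the read minimum. The median log2 difference of these 6 genes was -2.91, beside -0.33 for all genes tested. The 8 genes were picked from a list of responders that shares the cut library, and nothing particular to peroxidases is read from these counts.

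The 9 other genes of reactive oxygen species (ROS) and redox metabolism in the annotation went both ways, with a median of -1.44. By the rule of size 2 were higher and 3 lower, beside 8.25% and 7.35% of all tested genes. Catalase isozyme 1 (PGSC0003DMG400029408), which breaks down hydrogen peroxide, had 112248 reads in uncut and 36809 in cut. Its level was 2.72-fold lower in cut (2.69 to 2.75). The ratio of superoxide dismutase to catalase in cut was 1.11 times that in uncut (1.07 to 1.15, normal interval of the log odds ratio). Respiratory burst oxidase RBOHB (PGSC0003DMG400024754), an NADPH oxidase that makes superoxide, had 356 reads in uncut and 403 in cut, a log2 difference of 0.34 (0.13 to 0.55).

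The largest differences to the side of cut among the ROS and redox genes were in genes named for ascorbate oxidase. That apoplastic enzyme oxidises ascorbate, and whether the genes called homologs encode it was not tested. L-ascorbate oxidase (PGSC0003DMG400027914) had 150 reads in uncut and 2961 in cut, a level 22.1-fold higher in cut (18.8 to 26.3). One L-ascorbate oxidase homolog (PGSC0003DMG400010025) had 3452 reads in uncut and 19398 in cut, a level 6.30-fold higher in cut (6.08 to 6.53). The other homolog (PGSC0003DMG400029325) went the opposite way, with 265 reads in uncut and 57 in cut, 4.15-fold lower in cut (3.10 to 5.62) and short of the rule of size, at -1.72, relative to the median of all genes. The 3 genes with this name were thus split, 2 higher and 1 lower.

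Germin-like proteins, some of which have superoxide dismutase activity in other species, were lower in cut in both cases, beside 63.2% of all tested genes. Germin-like protein subfamily 1 member 17 (PGSC0003DMG400017178) had 803 reads in uncut and 108 in cut, 6.63-fold lower in cut (5.42 to 8.18). The putative germin-like protein 2-1 (PGSC0003DMG400013099) had 143 reads in uncut and 11 in cut, 11.6-fold lower in cut (6.29 to 23.7). The 2 monothiol glutaredoxins, small thiol proteins that work with glutathione, did not reach the rule of size and lay on opposite sides. The log2 difference was -1.75 (-1.83 to -1.67) for the S2-like gene and 1.80 (1.32 to 2.31) for the S1-like gene, which was past the rule, at 2.13, relative to the median of all genes.

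**Figure D3:**
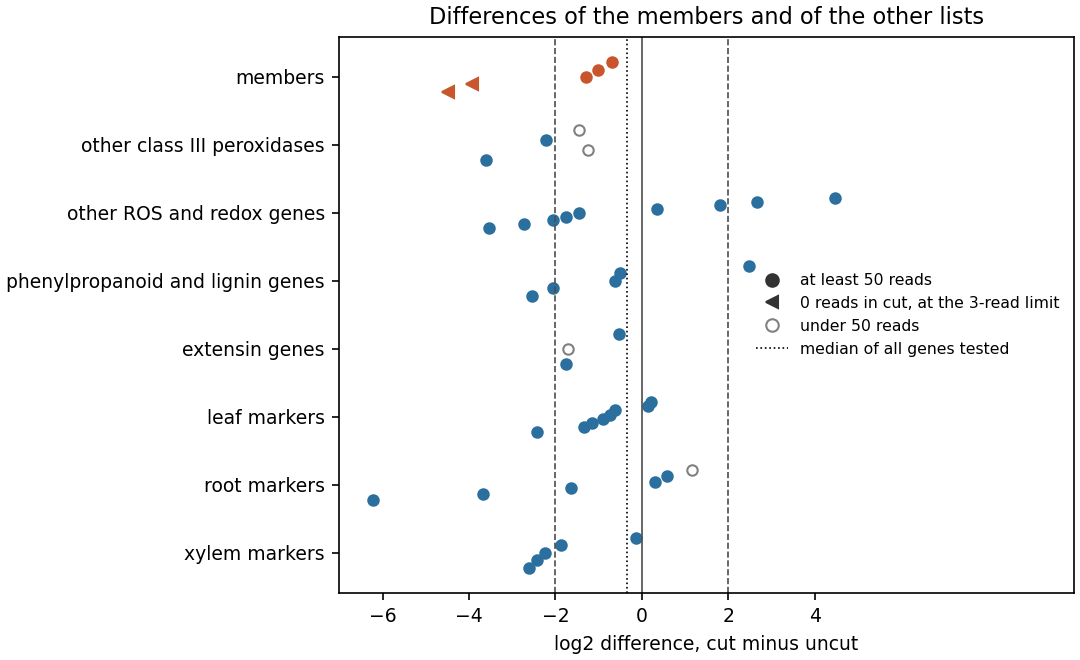
Log2 difference (cut minus uncut) of every gene in the lists described, 1 point a gene; dashed lines mark a difference of 2, the dotted line the median of all genes tested (-0.33), open points genes under 50 reads, and a gene without reads in 1 library is drawn with 3 reads there. The 5 genes described and the other peroxidases all lay below 0, beside 63.2% of all genes tested. The other ROS and redox genes and the phenylpropanoid genes spread to both sides.

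Lignin is built from phenylpropanoids, and 5 genes of lignin formation other than peroxidases were taken by name from the annotation. Of these 5, 1 was higher and 2 were lower by the rule of size, beside 8.25% and 7.35% of all tested genes. Their median was -0.63. Phenylalanine ammonia-lyase, the entry enzyme of the pathway (PGSC0003DMG402021549), had 19064 reads in uncut and 12076 in cut, a log2 difference of -0.49 (-0.53 to -0.46). Cytochrome P450 98A2-like (PGSC0003DMG400007180), of the family that hydroxylates monolignol precursors, had 59 reads in uncut and 296 in cut, 5.63-fold higher in cut (4.24 to 7.57). The 2 laccases, which oxidise monolignols with oxygen in place of hydrogen peroxide, were both lower in cut, beside 63.2% of all tested genes. Laccase-4-like (PGSC0003DMG400011019) had 496 reads in uncut and 76 in cut, 5.82-fold lower in cut (4.56 to 7.51). Laccase-12-like (PGSC0003DMG402027116) had 135 reads in uncut and 29 in cut, 4.15-fold lower in cut (2.76 to 6.43) and likewise at -1.72 relative to the median of all genes.

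Several markers of leaf, root and xylem were also lower in cut, and their part in the result was not tested. All 8 leaf markers had reads in both libraries, with log2 differences from -2.42 to 0.21 and a summed level of 270 RPM in uncut and 191 RPM in cut. Of 5 xylem markers, 3 were lower in cut by the rule of size, beside 7.35% of all tested genes, and none was higher. With the median difference set to 0, 2 of the 3 were still past the rule. Their summed level was 108 RPM in uncut and 29.2 RPM in cut. The 6 root markers were split, with 3 lower and 3 higher in cut by any amount. Their summed level was 772 RPM in uncut and 548 RPM in cut. Of the 5 with enough reads, 2 were lower by the rule of size, beside 7.35% of all tested genes. The 2 were genes named for the Casparian strip, the lignified barrier of the root endodermis, and whether they act there was not tested. CASP-like protein 1 (PGSC0003DMG400022659) had 915 reads in uncut and 11 in cut. CASPARIAN STRIP INTEGRITY FACTOR 2-like (PGSC0003DMG400030948) had 12541 and 876, or 330 RPM in uncut and 25.9 RPM in cut of the summed level. Root marker LOB domain-containing protein 16-like was at 0 reads in uncut and had 6 in cut. Nramp5, with 10390 reads in uncut and 13987 in cut, also lay on the higher side. So did NRT1/ PTR FAMILY 7.3-like, with 2616 and 2866. Of the root and xylem lists, every gene but this LOB domain gene had reads in both libraries, which the labels give as leaf.

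The genes beside the 5 members on the chromosome were compared with them. Among the 2 nearest features on each side, 20 in all, 12 had at least 50 reads and 6 had no reads. Of the 12, 2 were higher and 1 was lower in cut by the rule of size, beside 8.25% and 7.35% of all tested genes. Beside superoxide dismutase, both neighbours with enough reads were also lower in cut, at -1.58 and -2.65 (PGSC0003DMG400000418, 225 reads in uncut and 32 in cut). Beside peroxidase 9, the 4 neighbours ranged from -1.21 to 2.44. Beside peroxidase 9-like, the nearest feature ended 0.12 kb away on the opposite strand and had 0 reads in uncut and 4 in cut, and the 2 neighbours with enough reads were at 1.37 and -0.92. Beside peroxidase 61, the only neighbour with enough reads was higher in cut, at 1.87. Beside peroxidase 25, 1 neighbour 28.9 kb away (PGSC0003DMG400025472) had 65 reads in uncut and 2818 in cut, a difference of 5.60. No neighbour of peroxidase 61 or peroxidase 25 that had reads lacked them in cut. Beside peroxidase 61 little could be compared, as 2 of the 4 neighbours had no reads in either library. Another, PGSC0003DMG400005813, had 0 reads in uncut and 10 in cut, so it could not show a loss.

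**Figure D4:**
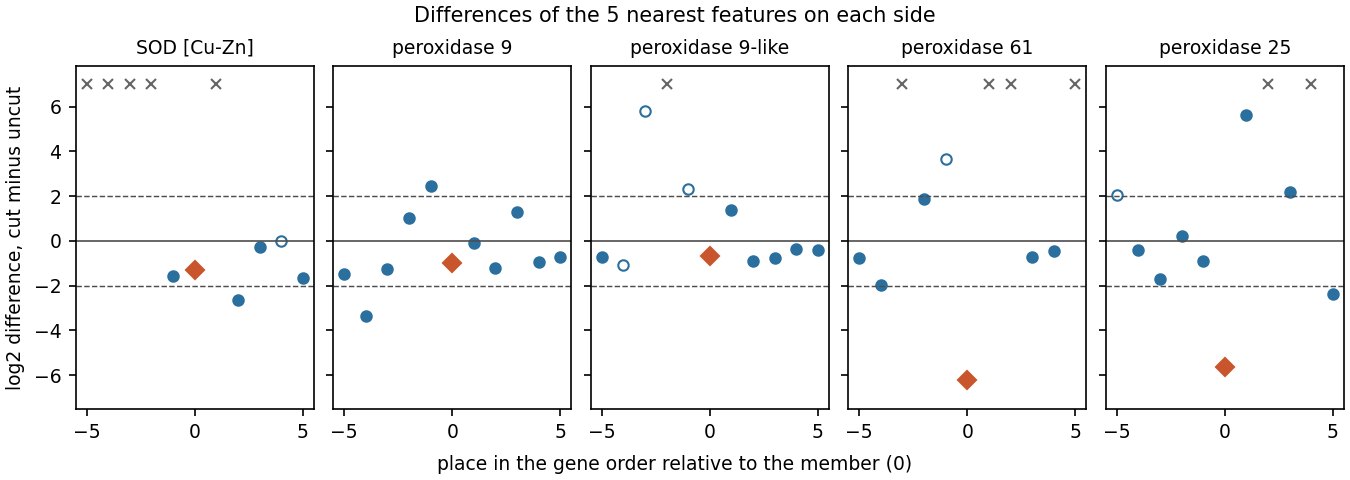
Log2 difference (cut minus uncut, vertical axis) of each of the 5 genes described (orange diamonds, at place 0) and of the 5 nearest features on each side in gene order; filled points had at least 50 reads, open points fewer, crosses at the top had none, and dashed lines mark a difference of 2. Peroxidase 61 and peroxidase 25 stood below all their neighbours, while peroxidase 9 and peroxidase 9-like lay within the range of theirs.

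The 2 levels of each gene were also compared with those of the 347 other named genes of the annotation that had reads. The likeness was the distance over the 2 log2 RPM values, so it rests on at most 2 libraries and says only that levels were alike. Nearest to peroxidase 9 were a putative U-box domain-containing protein 50 at a distance of 0.12, with 641 reads in uncut and 259 in cut, and sucrose synthase at 0.23. Nearest to peroxidase 9-like were a G-type lectin S-receptor-like kinase SD2-5 at 0.15 and a beta-glucan endohydrolase at 0.39. Superoxide dismutase was nearest to the metal-nicotianamine transporter YSL1 at 0.44, with 10749 reads in uncut and 4184 in cut, and to a late blight resistance protein homolog R1A-3 at 0.58. Peroxidase 61 was nearest to alkane hydroxylase MAH1-like at 0.45, with 104 reads in uncut and 0 in cut, and to a basic secretory protease at 0.72, with 125 and 0. Peroxidase 25 was nearest to the same alkane hydroxylase at 1.03 and to an NADH-ubiquinone reductase MLRQ subunit at 1.20, with 40 and 2. Where both genes compared had 0 reads in cut, the distance came from the uncut library alone. The distance to the MLRQ subunit depends on the value that the deposited table gives to 0 reads.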

How the data were processed

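The deposited table held log2 RPM values of 40430 genes in 2 libraries, uncut and cut. The authors trimmed the reads, mapped pairs to the SolTub 3.0 genome, used unique alignments only, quantified exons in SeqMonk, divided by each library's total and took log2. The labels' processing notes name CASAVA 1.7, Trim Galore 0.5.0 and HISAT2 2.1.0. The library kit marks strand, but whether the counting used it is not given in the sources used here. Unique alignment can leave reads of near-identical copies uncounted, which was not tested.

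All 20325 values tested in uncut and 21499 in cut, those of genes with reads up to 3000, were whole multiples of 1 read within 0.05 read, and genes without reads stood at 0.9 read. The procedure was tested on simulated reads drawn independently of each other, a setting without read pairs. That test cannot show whether the intervals hold where both reads of a pair were counted. Intervals, ratios and counts were computed with Python 3.11.15 (scipy 1.17.1, numpy 2.4.6, pandas 2.3.3). No count model was used, since the deposited unit is log2 and each group had 1 library. The alternatives were pseudocounts, scalings, read minimums and size limits.

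Gene names came from the study's annotation of ultrasound-responsive genes, and all 5 members matched a RefSeq gene (assembly SolTub_3.0) through their top protein hit. The genes named were the 5 members, the listed genes past the rule of size, the other peroxidases, and the 2 named genes nearest to each member in level; other listed genes and neighbours with values were named after their values were seen. The members and lists were chosen with earlier results of these data known.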

Additional observations from a re-analysis of the deposited data

How the results depend on the processing

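No paired analysis was possible because uncut and cut were a single library each. All 5 members stayed lower in cut under every pseudocount and scaling tried. Scaling by the median ratio moved the difference of peroxidase 9 from -1.01 to -0.68, of peroxidase 9-like from -0.69 to -0.36 and of superoxide dismutase from -1.29 to -0.96, and upper-quartile scaling moved the last to -1.14. For peroxidase 61, from -6.23, the difference became -4.39 with log2(RPM + 0.1), -1.59 with log2(RPM + 1) and -4.50 with 3 reads for 0. For peroxidase 25, from -5.66, it became -3.85, -1.23 and -3.92. The 2 members lower by the rule of size became 0 with log2(RPM + 1), where 857 of all genes were lower, and 0 with a minimum of 200 reads, which removes both. A difference of at least 1 gave 4 lower, beside 3550 genes higher and 4881 lower in all. At least 3 gave 937 and 528 of all genes, and no read minimum 3007 and 2486. Of the 10 named genes of the peroxidase, ROS and redox and phenylpropanoid lists past the rule, 4 fell short of it with log2(RPM + 1) and 3 with median-ratio scaling, and 0 changed sign. With median-ratio scaling, xylem markers lower by the rule went from 3 to 2. The depth sets the limits given for peroxidase 61 and peroxidase 25.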

Other observations

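Extensins, hydroxyproline-rich wall proteins that peroxidases can cross-link, were listed with 3 genes. All 3 were lower in cut, beside 63.2% of all tested genes. The pistil-specific extensin-like protein (PGSC0003DMG400029700) had 5253 reads in uncut and 1384 in cut, a log2 difference of -1.76 (-1.85 to -1.67), and the extensin-like protein (PGSC0003DMG401032203) had 2574 and 1581, a difference of -0.54 (-0.63 to -0.45). Extensin-1 (PGSC0003DMG400000794) had 11 reads in uncut and 3 in cut, under the read minimum, and its uncut to cut ratio of 3.27 had an interval of 0.864 to 18.3. None of the 3 reached the rule of size, and the median of the 2 with enough reads was -1.15.

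Dirigent protein 24-like (PGSC0003DMG400030182), of a family that steers the coupling of monolignol radicals made by peroxidases and laccases, had 255 reads in uncut and 147 in cut. Its level was 1.55-fold lower in cut (1.26 to 1.91), a smaller difference than those of both laccases.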
